A study of Drosophila melanogaster with 32 samples.

Results

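The Dpr, DIP, Beat and Side proteins are 4 families of immunoglobulin-domain cell recognition proteins of the fly, and 52 of their genes were looked up by gene symbol among the 16257 genes of the count table. All 52 were found: 21 Dpr genes, 9 DIP genes, 14 Beat genes and 8 Side genes. A gene was taken as expressed when its mean reached 1 CPM (counts per 1000000 counts of the library) in at least 1 group of libraries, and 22 of the 52 (42.3%) passed, against 64.4% of all genes in the table. The expression threshold used the levels in every group, so which genes passed it is a description of these libraries, with no test.

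Poly-A RNA was counted in cells sorted for GFP from ovaries of Drosophila melanogaster, in 30 libraries that formed 10 groups of 3. Somatic cells carried bab:GAL4, which drove UAS GFP together with either a UAS hpo RNAi or a UAS yki RNAi hairpin, and were collected early (72 h after egg laying, instar III larvae), mid (96 h, instar III larvae) and late (120 h, white pupae). Germ line cells carried nos:GAL4 with the same UAS GFP and either hairpin, and were taken at the mid and late stages. The nos:GAL4 stock also carries UAS-Dcr-2, which the bab:GAL4 stock as listed does not, so driver, Dcr-2 and cell type cannot be told apart. Hippo (hpo) is a kinase that restrains the growth co-activator Yorkie (yki), so the hairpins act on opposite arms of 1 pathway. Every comparison of RNAi conditions below sets hpo RNAi against yki RNAi, and none is against unmanipulated cells.

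Dpr and DIP proteins sit on cell surfaces and bind one another across the gap between cells, with each DIP recognising its own set of Dprs. Beat and Side proteins form a second ligand and receptor network, in which Side was first known as a muscle ligand that steers motor axons carrying Beat-Ia. All 4 families are best known from the nervous system of the fly, where they take part in axon guidance, synaptic partner matching and the survival of particular neurons. These roles are background from neurons, and no function of these genes in the ovary is assumed here.

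The depth of the 30 libraries was 34.8 ± 15.2 in units of 1000000 counts (SD, n = 30), from 15.2 to 75.1. The hpo gene itself lay between 5.29 and 26.6 CPM in somatic hpo RNAi libraries and between 72.8 and 129 CPM in somatic yki RNAi libraries, with 5.69 to 18.1 against 52.9 to 79.4 CPM in the germ line. For yki the ranges were 5.05 to 14.9 CPM under yki RNAi and 16.5 to 32.9 CPM under hpo RNAi in the soma, and 6.92 to 9.58 against 9.26 to 15.8 CPM in the germ line. The 10 somatic ovary markers found summed to between 3047 and 8396 CPM in somatic libraries and to between 281 and 565 CPM in germ line libraries. The 10 germ line markers found summed to between 7993 and 10296 CPM in germ line libraries, but also to between 964 and 2688 CPM in somatic ones. Since these are sorted bulk samples, fewer cells of a type and less RNA per cell cannot be told apart.

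Libraries with few genes also had few members. Soma yki RNAi mid replicate 3 held counts for 8447 genes and 9 members, and germ line yki RNAi late replicate 2 for 9043 genes and 10 members, while the other libraries of those groups held 20 to 34 members. Soma yki RNAi early replicate 1 stood apart from the other early yki RNAi libraries in dpr17, side-V and side-VIII, as the values below show.

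Of the 22 expressed members, 9 of 21 were Dpr genes, 2 of 9 DIP genes, 3 of 14 Beat genes and 8 of 8 Side genes. A mean of 1 CPM was reached by 18 members in at least 1 somatic group and by 16 in at least 1 germ line group, with 12 in both, 6 in the soma alone and 4 in the germ line alone. In any single group between 9 and 14 members passed. The member just above the threshold was side-VI, with 1.19 CPM in germ line yki RNAi late, and the one just below was dpr16, with 0.981 CPM in soma hpo RNAi late. The other 29 unexpressed members had group means of at most 0.628 CPM. Of these, dpr5, dpr15 and DIP-delta had no count in any of the 30 libraries, and among the best studied genes of the families DIP-gamma reached 0.316 CPM and beat-Ia 0.0383 CPM at most.

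**Figure D1:**
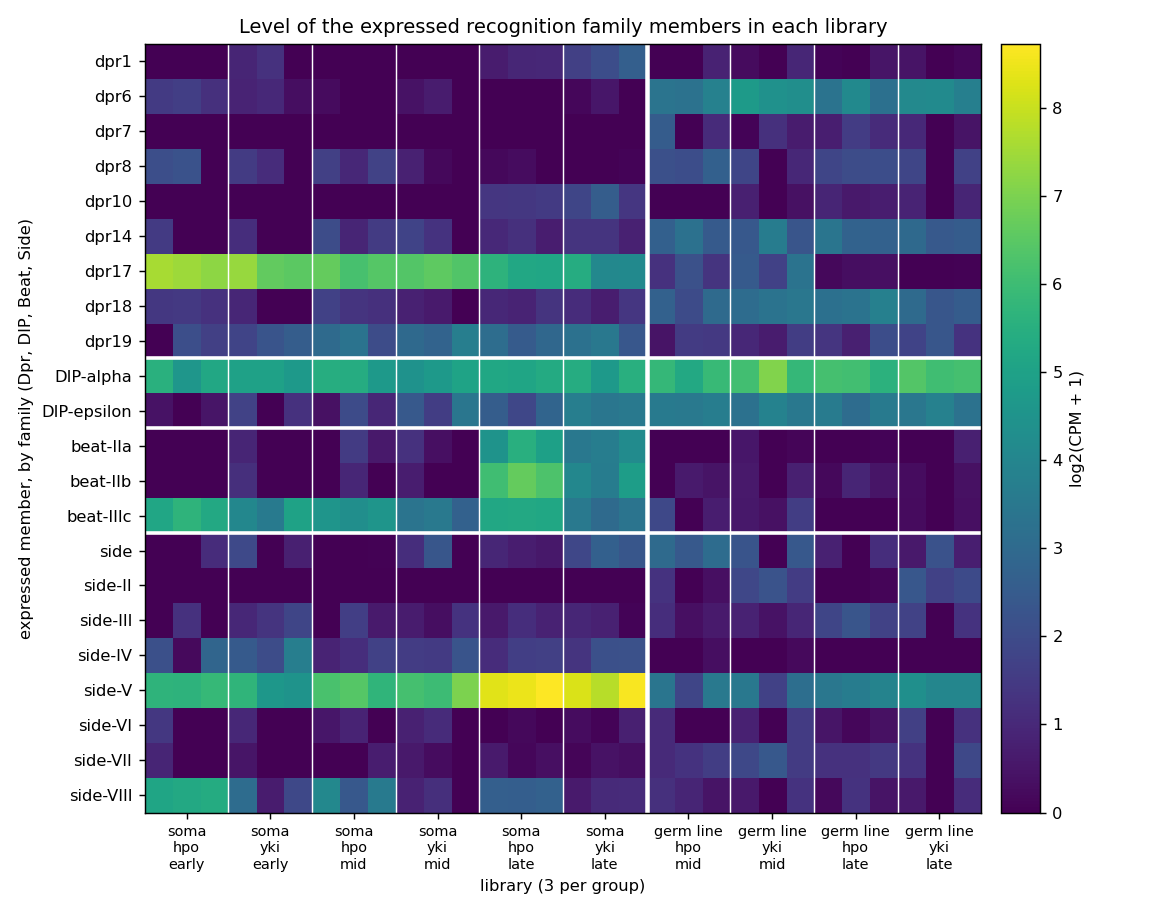
Each column is 1 library and each row 1 of the 22 expressed members, grouped by family, and the colour gives log2(CPM + 1). dpr17 is brightest in the early soma and side-V in the late soma, while dpr6 is bright in the germ line columns alone.

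A few genes made up most of the families' RNA, and the leading gene differed between the early soma, the late soma and the germ line. The summed level of the 52 genes was 350 ± 19.2 (early), 242 ± 32.4 (mid) and 620 ± 54.6 CPM (late) in soma hpo RNAi (SD, n = 3 each). In soma yki RNAi the sums were 223 ± 62.3, 232 ± 38.5 and 447 ± 108 CPM (SD, n = 3 each). Germ line sums ran from 116 ± 23.5 to 164 ± 35.4 CPM (SD, n = 3). The 3 most abundant members took 62.1% to 85.6% of the sum in each group. dpr17 led the early soma with 48.7% (hpo RNAi) and 53.0% (yki RNAi) of the sum, side-V led the late soma with 59.3% and 68.6%, and DIP-alpha led each germ line group with 43.4% to 51.7%. Per kilobase of exon, which allows genes of different length to be compared, dpr17 was again first in the early soma at 38.1 ± 4.55 CPM per kb under hpo RNAi (SD, n = 3). On that scale side-V was first in the late soma at 63.9 ± 8.62 CPM per kb under hpo RNAi, and DIP-alpha was first in all 4 germ line groups, at 5.60 ± 1.28 to 9.45 ± 4.63 CPM per kb (SD, n = 3).

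In the soma, the members that edgeR called between hpo RNAi and yki RNAi were side-VIII and beat-IIIc, and both were higher under hpo RNAi. With genes called at an adjusted p under 0.05 in edgeR's quasi-likelihood test over all genes tested, the members called were 1 of 24 tested in the early soma, 2 of 24 in the mid soma and 1 of 24 in the late soma. The share of all genes called was 2.45% in the early, 2.5% in the mid and 1.03% in the late soma. For the average over the 3 stages 2 of 24 members were called, against 5.48% of all genes. At these counts the members' share cannot be set apart from the background. The median log2 fold change of the members tested was 0.56 in the early, -0.02 in the mid and 0.36 in the late soma, and the median of all genes lay within 0.01 of 0 in the early and mid soma.

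side-VIII (FBgn0086604) is a Side family gene with no partner named here. It lies on 2R, from 20424338 to 20478951 on the plus strand of BDGP6.54. In the early soma its level was 33.6, 37.3 and 40.0 CPM in the 3 hpo RNAi libraries and 7.45, 0.599 and 2.72 CPM in the 3 yki RNAi libraries. In the mid soma the values were 15.7, 4.25 and 10.8 CPM with hpo RNAi against 0.776, 1.23 and 0 CPM with yki RNAi. In the late soma they were 5.26, 5.04 and 5.55 CPM against 0.543, 1.07 and 1.09 CPM. At each stage every hpo RNAi library lay above every yki RNAi library, and the lowest group mean under hpo RNAi was in the late soma. The log2 fold change was 3.37 (SE 0.87, adjusted p = 0.0436) in the early soma, 3.82 (SE 0.90, adjusted p = 0.0217) in the mid soma and 2.57 (SE 0.86, adjusted p = 0.327) in the late soma. Averaged over the stages it was 3.26 (SE 0.50, adjusted p = 3.15e-04), and this call held in each of the 18 fits that left out 1 library.

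The calls for side-VIII at single stages were less stable. The early and mid calls were lost with the replicate block (adjusted p = 0.0816 and 0.0587) and with the 6 libraries of the stage alone (0.0651 and 0.258), while the late soma was called in DESeq2 (0.0448) and with its 6 libraries alone (0.00299). The early call was lost in 5 of 6 fits that left out 1 of its libraries, with adjusted p = 0.0835, 0.102 and 0.0630 without hpo RNAi replicates 1, 3 and 4, and 0.117 and 0.140 without yki RNAi replicates 2 and 3. The mid call was lost without hpo RNAi replicate 1 (adjusted p = 0.0614), hpo RNAi replicate 3 (0.0611) or yki RNAi replicate 1 (0.0810). An interaction of RNAi with somatic stage was not called for side-VIII (adjusted p = 0.981) or any other member in edgeR or DESeq2, where 0.6% of all genes were called in edgeR. At an unadjusted p under 0.05 there were 4 members.

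Group means of side-VIII in the germ line lay between 0.562 ± 0.589 and 0.852 ± 0.475 CPM (SD, n = 3), and the libraries of the RNAi conditions overlapped. The log2 fold change of hpo RNAi against yki RNAi was 0.37 in the mid germ line, with a 95% interval from -2.97 to 3.70, and 0.19 in the late germ line, from -3.16 to 3.53. The upper end at the mid stage is close to the somatic mid value of 3.82, which has its own SE of 0.90. The intervals use a normal quantile, which makes them narrow for so few libraries, so they do not set the cell types apart. The late interval includes the somatic late value of 2.57. The difference between soma and germ line in the RNAi effect had an adjusted p of 0.502 (mid) and 0.904 (late), where 0.165% and 0.182% of all genes and no member were called in edgeR, so the effect was not shown to differ between the cell types. At an unadjusted p under 0.05 there were 4 members (mid) and 3 (late). side-VIII itself was higher in the soma than in the germ line under hpo RNAi, with a log2 difference of 4.0 at the mid stage (SE 1.24, adjusted p = 0.0125) and 3.43 at the late stage (SE 1.22, adjusted p = 0.0282). The mid call was lost without germ line mid replicate 4 (adjusted p = 0.0555), and the late call without germ line late replicate 1 (0.107) or 4 (0.101) or soma late replicate 3 (0.0523).

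beat-IIIc (FBgn0032629), a Beat family gene on 2L from 17187637 to 17260734 on the minus strand, showed a smaller difference with less spread. In the early soma its level was 35.3, 49.7 and 37.3 CPM with hpo RNAi against 15.4, 11.0 and 31.9 CPM with yki RNAi. In the mid soma it was 22.2, 18.8 and 22.7 CPM against 9.27, 10.6 and 5.51 CPM. In the late soma it was 36.7, 37.4 and 35.6 CPM against 10.6, 7.03 and 9.26 CPM. No library of either RNAi condition reached into the range of the other at any stage. The log2 fold change was 1.04 (SE 0.33, adjusted p = 0.106) in the early soma, 1.3 (SE 0.33, adjusted p = 0.0411) in the mid soma and 2.03 (SE 0.34, adjusted p = 0.00341) in the late soma. The average over stages was 1.46 (SE 0.19, adjusted p = 6.12e-05). The late and average calls held in each fit that left out 1 library.

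The mid call of beat-IIIc was lost with the replicate block (adjusted p = 0.0729), with the 6 mid libraries alone (0.118) and in all 6 such fits, with adjusted p = 0.0752, 0.0785 and 0.144 without hpo RNAi replicates 1, 2 and 3, and 0.104, 0.0513 and 0.166 without yki RNAi replicates 1, 2 and 3. DESeq2 called the early soma (adjusted p = 0.0428). There yki RNAi replicate 3 was the highest of its group at 31.9 CPM, and without it the gene was called (adjusted p = 0.00718). Germ line levels of beat-IIIc were at 2.69, 0 and 0.639 CPM (hpo RNAi mid), 0.474, 0.307 and 1.97 CPM (yki RNAi mid) and 0.186, 0 and 0.294 CPM (yki RNAi late). The 3 germ line hpo RNAi late libraries held no count, which allows a level of up to 0.0354 CPM over the group by counting error. Soma was higher than germ line in all 4 comparisons, by a log2 of 4.73 and 3.54 at the mid stage (hpo and yki RNAi), at least 1039-fold in late hpo RNAi with counts pooled and by a log2 of 6.01 in late yki RNAi, with adjusted p from 9.28e-08 to 0.00127. The interaction of RNAi with cell type was not called at the late stage (edgeR adjusted p = 0.236), and DESeq2 called it (adjusted p = 0.00725).

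**Figure D2:**
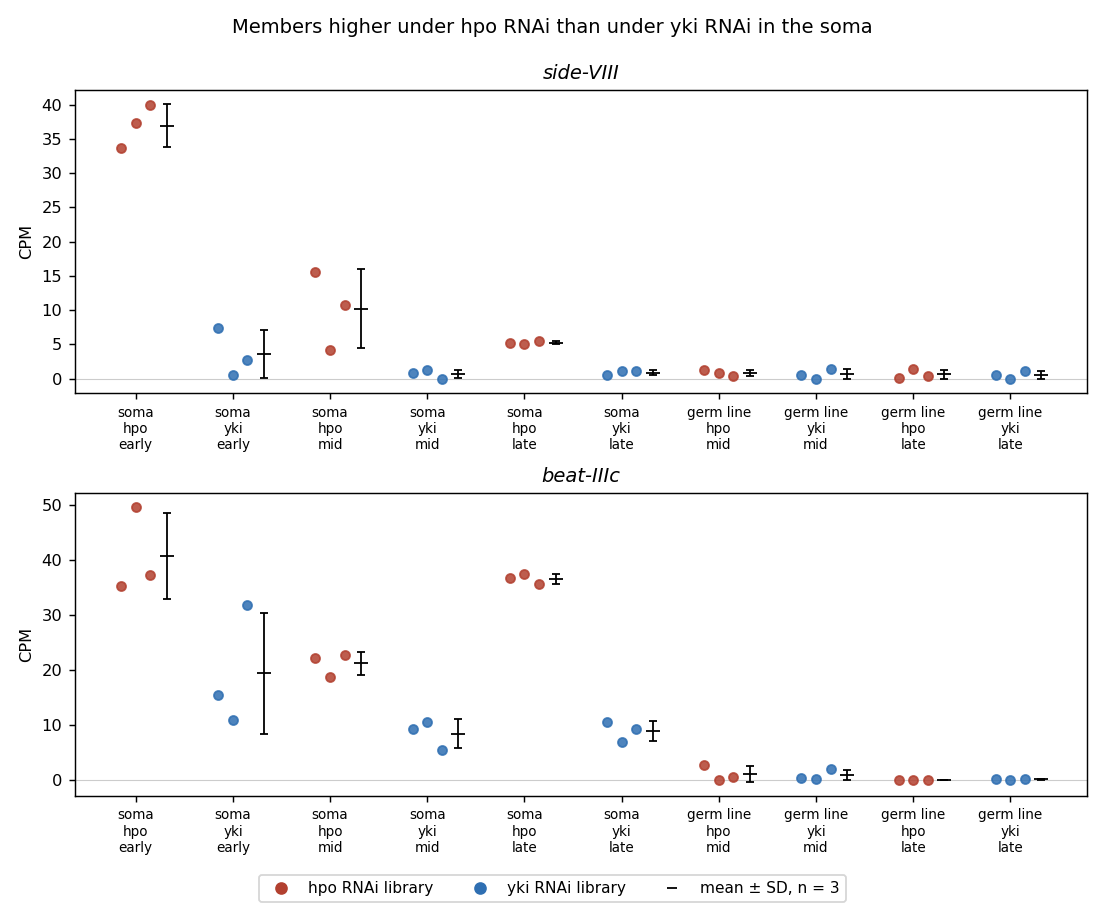
Points give CPM in each library of the 10 groups for side-VIII and beat-IIIc, in red for hpo RNAi and blue for yki RNAi, and bars give the mean ± SD of 3. In every somatic stage all hpo RNAi points lie above all yki RNAi points, and the germ line points of side-VIII stay at or below 1.44 CPM.

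side (FBgn0016061), the ligand of Beat-Ia, was called lower under hpo RNAi in some settings. It was not called in edgeR's fit of all somatic libraries without a replicate block. Its level was 0, 0 and 1.16 CPM in early hpo RNAi soma against 2.81, 0 and 0.704 CPM with yki RNAi. In the mid soma it was 0, 0 and 0.0363 CPM against 1.20, 4.09 and 0 CPM, and in the late soma 0.932, 0.623 and 0.466 CPM against 2.60, 5.46 and 4.08 CPM. The libraries overlapped in the early and mid soma but not in the late soma. The averaged log2 fold change was -3.55 (SE 1.24, adjusted p = 0.111), and it was called in DESeq2 (adjusted p = 0.0186) and with the replicate block (adjusted p = 0.0428). DESeq2 also called the mid soma (adjusted p = 0.0327), and edgeR with the 6 late libraries alone called the late soma (adjusted p = 0.00937). Without soma hpo RNAi early replicate 4 edgeR called the average (log2 fold change -5.83, adjusted p = 0.0173).

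Other marker levels moved with the RNAi condition in the soma. The 10 germ line markers summed to 2117 to 2688 CPM in early hpo RNAi libraries and 1385 to 1882 CPM in early yki RNAi libraries, but to 964 to 1015 against 1257 to 1490 CPM in the late soma. The 6 glial markers summed to 256 to 346 CPM in the 9 somatic hpo RNAi libraries and 378 to 494 CPM in the 9 yki RNAi libraries, and the 10 neuronal markers to 20.4 to 70.8 and 45.2 to 93.6 CPM. The part of these cells in the RNAi differences of side-VIII and beat-IIIc was not tested.

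Related genes outside the 4 families, where called, were mostly lower under hpo RNAi. They were other immunoglobulin superfamily adhesion genes and cDIP, a secreted binding partner of many members. Called genes of the whole table were also mostly lower, with 150 of 261 in the early, 226 of 267 in the mid and 65 of 110 in the late soma. Of a list of 20, 17 were tested in the soma, and those called were 0 higher and 3 lower in the early, 0 higher and 5 lower in the mid, and 0 higher and 2 lower in the late soma under hpo RNAi. Ama, a secreted immunoglobulin protein that binds Neurotactin, was at 10.0 ± 1.96 against 132 ± 29.1 CPM in the early soma (SD, n = 3, log2 fold change -3.72, adjusted p = 1.44e-08). wrapper, a glial surface protein, was at 16.1 ± 9.55 against 79.4 ± 19.1 CPM (SD, n = 3, log2 fold change -2.30, adjusted p = 0.00711), a call lost without hpo RNAi replicate 3 (adjusted p = 0.0501). Dscam4 was the 1 gene of the list called higher on the average over stages, by a log2 of 0.69 (SE 0.12, adjusted p = 0.00130). Of the list, 15 were tested in the germ line and edgeR called 0 at the mid stage, late stage and on average, with 4, 2 and 4 at an unadjusted p under 0.05 and 0 in DESeq2.

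**Figure D3:**
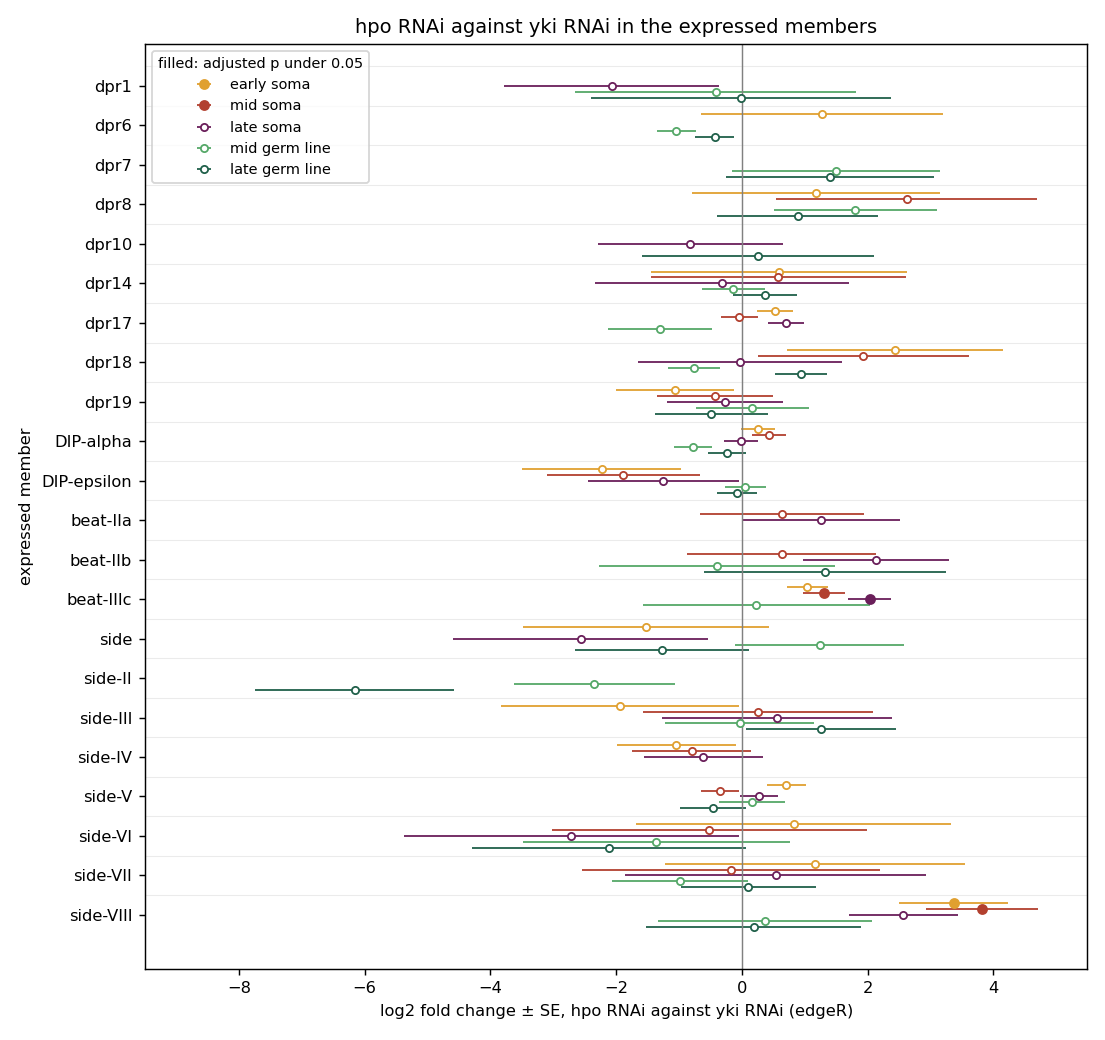
Log2 fold change ± SE of hpo RNAi against yki RNAi from edgeR for the expressed members, in 3 somatic and 2 germ line comparisons, leaving out comparisons with fewer than 4 counts in either group. Filled points, which are side-VIII and beat-IIIc alone, have an adjusted p under 0.05.

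In the germ line no member was called between hpo RNAi and yki RNAi at either stage or on average (0 of 27 tested each), where 0.103% of all genes were called at the mid stage, 0.187% at the late stage and 0.635% on average. At an unadjusted p under 0.05 there were 4 members each, and DESeq2 called 0, 1 and 1. The 1 gene that DESeq2 called was side-II, a Side family gene that is a partner of Beat-VI. Its level was 1.41, 0 and 0.280 CPM in mid hpo RNAi against 2.62, 3.72 and 1.95 CPM in mid yki RNAi, and 0, 0 and 0.0932 CPM in late hpo RNAi against 4.13, 2.2 and 2.91 CPM in late yki RNAi. Both stages were free of overlap between hpo RNAi and yki RNAi libraries. On average the log2 fold change was -4.26 (SE 1.02) with an adjusted p of 0.0983 in edgeR and 1.18e-04 in DESeq2. Without germ line yki RNAi mid replicate 4 edgeR's adjusted p was 0.0436. In the 18 somatic libraries side-II had 1 count in all.

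In the soma more members were called from mid to late than between RNAi conditions, as were more of all genes. In edgeR's fit of all 18 somatic libraries they were other members. With the 6 late libraries alone, beat-IIa, beat-IIb and dpr1 were also called between RNAi conditions (edgeR adjusted p = 0.0251, 0.00239 and 0.0256). DESeq2 also called beat-IIIc between early and mid under yki RNAi (adjusted p = 0.0202). From mid to late, 6 of 24 members tested were called under hpo RNAi (5 higher, 1 lower) and 6 of 24 under yki RNAi (5 higher, 1 lower), where 15.8% and 13.2% of all genes were called. From early to mid, 0 of 24 (hpo RNAi) and 1 of 24 (yki RNAi) were called, where 2.72% and 0.684% of all genes were. For the mid to early step under hpo RNAi 6 members had an unadjusted p under 0.05 and DESeq2 called 2. The members called from mid to late were dpr1, dpr10, dpr17, beat-IIa, beat-IIb and side-V under both RNAi conditions. These comparisons share no libraries, but they come from the same fit with a shared estimate of the spread, so the calls are not independent.

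dpr17 (FBgn0051361, 3R from 12094876 to 12111420, plus strand) encodes a Dpr that binds DIP-gamma, and it was the member called lower from mid to late. Its level under hpo RNAi was 189, 173 and 149 CPM early, 100, 71.1 and 84.2 CPM mid, and 49.2, 36.6 and 35.0 CPM late. Under yki RNAi it was 165, 98.9 and 90.6 CPM early, 82.7, 92.5 and 81.7 CPM mid, and 41.7, 15.8 and 16.7 CPM late. Late libraries lay below every mid library under both conditions. The late against mid log2 fold change was -1.05 (SE 0.29, adjusted p = 0.0180) under hpo RNAi and -1.79 (SE 0.30, adjusted p = 3.82e-04) under yki RNAi. The first call was lost without hpo RNAi mid replicate 1 (adjusted p = 0.0535) or 3 (0.0569), or late replicate 2 (0.0784) or 3 (0.0774), and the second was lost in none of its 6 fits.

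The libraries of the RNAi conditions overlapped in dpr17 at each somatic stage, with an averaged log2 fold change of 0.40 and a 95% interval from 0.07 to 0.72 (adjusted p = 0.197). Without soma yki RNAi late replicate 1, which at 41.7 CPM stood above the other late yki RNAi libraries, dpr17 was called higher under hpo RNAi in the late soma (adjusted p = 0.00732) and on average (adjusted p = 0.00403). Germ line libraries held dpr17 at 1.37, 3.48 and 1.5 CPM in mid hpo RNAi and 4.55, 2.19 and 9.02 CPM in mid yki RNAi. At the late stage it was at 0.132, 0.263 and 0.280 CPM under hpo RNAi, and 1 count was found in the 3 yki RNAi libraries. The late against mid ratio of pooled counts under yki RNAi was 472-fold lower, with a 95% counting interval from 84.4 to 18660 (edgeR adjusted p = 0.0428). It was 1 of the 2 genes called in that comparison, in which 0.0187% of all genes were. Leaving out 1 library ended this call in 5 of 6 fits, with adjusted p = 0.268, 0.191 and 0.311 without late replicates 1, 2 and 3, and 0.168 and 0.193 without mid replicates 2 and 4. Soma was higher than germ line in all 4 comparisons, for example by a log2 of 5.76 (SE 0.45, adjusted p = 1.50e-10) in mid hpo RNAi.

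side-V (FBgn0085400, 2R from 23163012 to 23203973, minus strand) is a Side family gene, and it had the highest level of all members in the late soma. Under hpo RNAi its level was 50.5, 48.5 and 57.2 CPM early, 72.8, 85.7 and 50.8 CPM mid, and 325, 356 and 422 CPM late. Under yki RNAi it was 51.0, 23.7 and 21.3 CPM early, 70.9, 62.5 and 128 CPM mid, and 303, 220 and 398 CPM late. Every late library lay above every earlier one. The late against mid log2 fold change was 2.42 (SE 0.32, adjusted p = 3.09e-05) under hpo RNAi and 1.81 (SE 0.31, adjusted p = 6.10e-04) under yki RNAi, and both calls held in each fit without 1 library.

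From early to mid, side-V was called higher under yki RNAi with a log2 fold change of 1.5 (SE 0.31, adjusted p = 0.0270), and lost without early replicate 2 (adjusted p = 0.133), early replicate 3 (0.155) or mid replicate 3 (0.172). Under hpo RNAi the same step gave 0.45 (SE 0.31, adjusted p = 0.481), and the interaction of RNAi with stage was not called (adjusted p = 0.529). Without yki RNAi early replicate 1 the early RNAi difference of side-V was called (adjusted p = 0.0394). Germ line libraries held 2.19 to 19.5 CPM of side-V, and soma was higher in all 4 comparisons, by a log2 of 3.62 to 5.36 with adjusted p from 1.31e-09 to 3.84e-07.

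beat-IIa (FBgn0038498) and beat-IIb (FBgn0038494) are Beat genes whose proteins bind Side-IV, and they lie 55 kb apart on the minus strand of 3R, from 17320004 to 17366119 and from 17232253 to 17265049. Before the late stage both were at or near 0 in the soma, with at most 1.89 CPM in any early or mid library, and without a count in the 3 early hpo RNAi libraries. In the late soma beat-IIa was at 21.1, 43.9 and 29.9 CPM with hpo RNAi against 10.4, 12 and 17.6 CPM with yki RNAi. beat-IIb was at 64.8, 99.5 and 76.6 CPM with hpo RNAi against 15.3, 11.8 and 28.0 CPM with yki RNAi. For both genes the late hpo RNAi libraries lay above the late yki RNAi libraries.

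The late against mid log2 fold change of beat-IIb was 7.91 (SE 1.57, adjusted p = 0.00206) under hpo RNAi and 6.41 (SE 1.5, adjusted p = 0.00788) under yki RNAi, and both calls held in each fit that left out 1 library, though DESeq2 did not call the latter (adjusted p = 0.109). For beat-IIa it was 5.20 under hpo RNAi (SE 1.49, adjusted p = 0.0238) and 4.58 under yki RNAi (SE 1.45, adjusted p = 0.0462). The hpo RNAi call of beat-IIa was lost without mid replicate 1 (adjusted p = 0.0619) or 3 (0.0980) or late replicate 2 (0.0789) or 3 (0.0617), and in DESeq2 (0.0516). The yki RNAi call was lost without mid replicate 2 (0.157) or 3 (0.0838) or late replicate 1 (0.0794), 2 (0.0833) or 3 (0.119), and in DESeq2 (0.102). Between the RNAi conditions in the late soma the log2 fold change was 1.25 for beat-IIa and 2.13 for beat-IIb, both with an adjusted p of 1 when the spread was estimated over all 18 somatic libraries. With the spread taken from the 6 late libraries alone, both were called (adjusted p = 0.0251 and 0.00239). Without overlap in the late soma were 8 members, 5 higher and 3 lower under hpo RNAi, where 24.5% of all genes were without overlap.

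dpr1 and dpr10 were also called higher in the late than in the mid soma, at low levels. Neither had a count in any mid soma library. In the early soma dpr1 was at 0.874, 1.37 and 0 CPM under yki RNAi and had no count under hpo RNAi. DESeq2 called both that RNAi difference (adjusted p = 0.00959) and the lower mid level under yki RNAi (adjusted p = 0.0113), and edgeR called neither (adjusted p = 0.107 and 0.204). dpr10, a partner of DIP-alpha, reached 1.70 ± 0.104 CPM with hpo RNAi against 3.02 ± 1.73 CPM with yki RNAi in the late soma (SD, n = 3). Against the mid stage these levels were higher by 59.8-fold or more and 118-fold or more (adjusted p = 0.0161 and 0.0120). dpr1, which was first found for its part in salt aversion, reached 0.830 ± 0.201 and 3.52 ± 1.52 CPM (SD, n = 3). Against the mid stage it was at least 29.7-fold higher under hpo RNAi and at least 151-fold under yki RNAi (adjusted p = 0.0348 and 0.0154). Under hpo RNAi all 6 fits that left out a library lost the dpr1 call (adjusted p from 0.0651 to 0.113), and under yki RNAi 3 of 6 fits lost the call, those without late replicate 3 (0.0553) or mid replicate 1 (0.0573) or 2 (0.0601). For dpr10 the hpo RNAi call was lost without mid replicate 3 (adjusted p = 0.0572). In mid yki RNAi edgeR also called dpr1 lower in the soma than in the germ line. This call was lost without germ line mid replicate 2 (adjusted p = 0.0622) or 4 (0.154) or soma mid replicate 1 (0.116), 2 (0.122) or 3 (0.0996). It was also lost with the replicate block (0.141) and with no filter (0.0572).

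**Figure D4:**
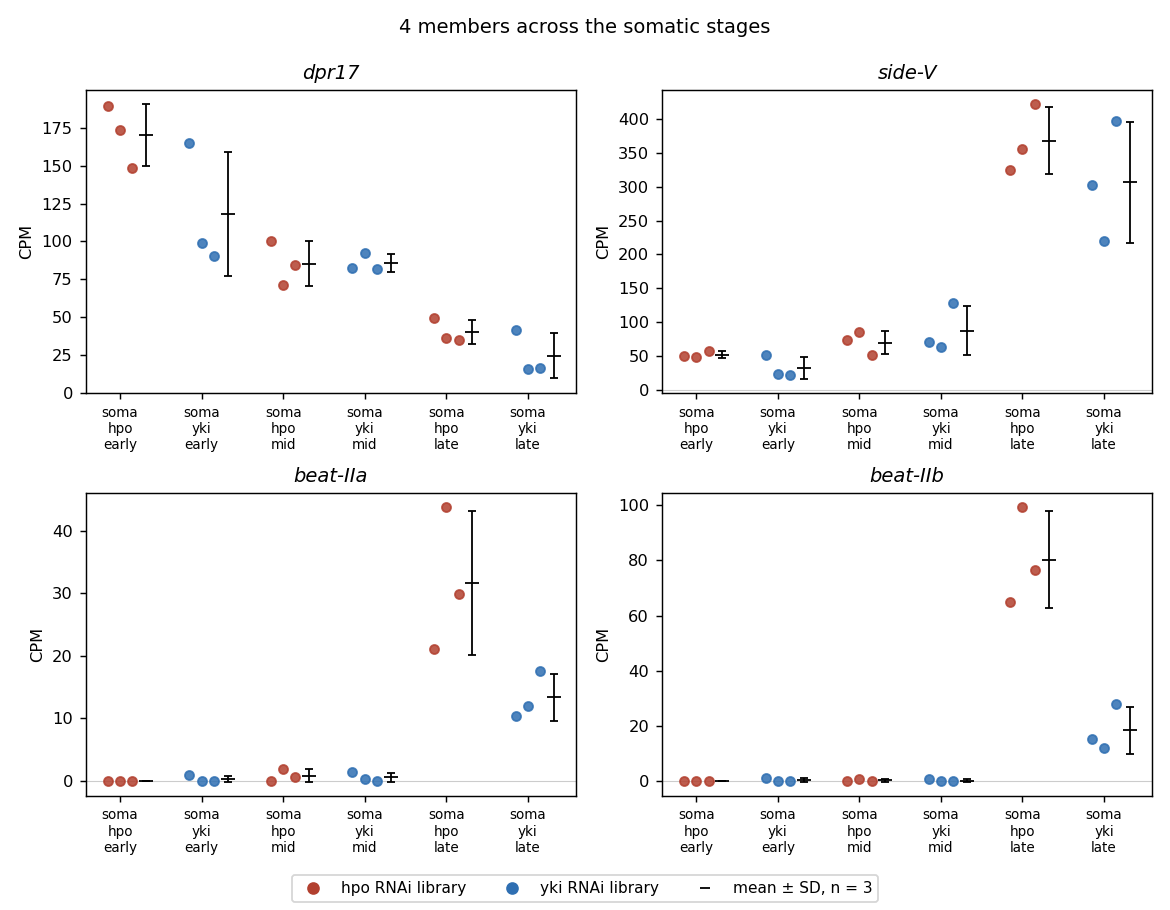
CPM of dpr17, side-V, beat-IIa and beat-IIb in each of the 18 somatic libraries, by stage and RNAi, with the mean ± SD of 3 beside the points. dpr17 is lowest late, while side-V, beat-IIa and beat-IIb are highest late, and late beat-IIa and beat-IIb are higher under hpo RNAi than under yki RNAi.

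Markers of other cells moved with stage in the soma. The summed level of 7 hemocyte markers lay between 61.6 and 224 CPM in the early and mid soma and between 970 and 1914 CPM in the late soma, nearly all of it Pxn. Of the other markers of this list, He, NimC1, eater and Hml had group means of at most 1.19 CPM, and srp and crq made up the rest of the sum. The 10 somatic ovary markers also summed to more late (7340 to 8396 CPM) than before (3047 to 5251 CPM), as did the 9 muscle markers (207 to 323 against 71.1 to 207 CPM). The neuronal markers summed to 38.7 to 93.6 CPM in the late soma and 20.4 to 85.7 CPM before. The part of other cells in the stage differences was not tested.

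In the germ line few members moved with stage: 0 of 27 tested were called under hpo RNAi, where 0% of all genes were, and 1 of 27 under yki RNAi, which was dpr17. Under hpo RNAi 7 members had an unadjusted p under 0.05, and DESeq2 called 1, again dpr17 (adjusted p = 0.0153).

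Between soma and germ line, members were called at about the rate of other genes. Of 32 members tested, 12 were called in mid hpo RNAi (7 higher in the soma, 5 lower), 9 in late hpo RNAi (7 higher, 2 lower), 12 in mid yki RNAi (5 higher, 7 lower) and 8 in late yki RNAi (6 higher, 2 lower). The share of all genes called was 37.9%, 36.7%, 38.8% and 38.1% in the same order. Each cell type had members of its own at the top. dpr17, side-V, beat-IIIc and side-IV were called higher in the soma in all 4 comparisons, and dpr6 was called lower in all 4. The side-IV call in mid hpo RNAi was lost without germ line mid replicate 1 (adjusted p = 0.0871) or 3 (0.0902) or soma mid replicate 3 (0.0703).

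Markers of other cells also differed between the cell types. The 10 neuronal markers summed to 94.7 to 190 CPM in germ line libraries and 20.4 to 93.6 CPM in somatic ones, mostly Appl, futsch and elav, while VGlut, Syt1 and fne stayed at or under 0.294 CPM in every germ line library. The 7 fat body markers found summed to 19.6 to 44.8 CPM in the germ line, most of it apolpp and Lsp1gamma, and to at most 8.95 CPM in the soma. The 6 glial markers summed to 6.31 to 27.5 CPM in the germ line and 256 to 494 CPM in the soma. The part of these cells in the soma and germ line differences below was not tested.

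DIP-alpha (FBgn0052791, X from 3507245 to 3571649, minus strand), a receptor for Dpr6 and Dpr10 that takes part in the survival and wiring of neurons, was the most even member. Every library held between 20.7 and 132 CPM. In the soma the values were 45.2, 23.3 and 36.4 (early), 42.6, 41.4 and 24.5 (mid) and 35.5, 34.4 and 39.2 CPM (late) under hpo RNAi. Under yki RNAi they were 31.1, 31.1 and 24.8 (early), 20.7, 25.3 and 32.2 (mid) and 41.6, 24.9 and 44.2 CPM (late). The germ line values were 55.6, 37.1 and 58.2 (mid) and 70.5, 66.1 and 47.4 CPM (late) under hpo RNAi, and 67.4, 132 and 55 (mid) and 82.6, 64.6 and 70.1 CPM (late) under yki RNAi. The hpo RNAi and yki RNAi libraries overlapped at the early, mid and late somatic stages, and the germ line libraries ranged from 37.1 to 132 CPM against 20.7 to 45.2 CPM in the soma.

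No RNAi or stage comparison of DIP-alpha was called. In the soma the averaged RNAi log2 fold change was 0.23, with a 95% interval from -0.08 to 0.53. Against the germ line, the somatic level was called lower in mid yki RNAi, with a log2 difference of -1.36 (SE 0.32, adjusted p = 0.00112), and in none of the other 3 comparisons, where the values were -0.07, -0.34 and -0.57 with TMM scaling. Exons of DIP-alpha overlap those of CG2875 on the same strand by 158 bp and of ppk8 on the other strand by 106 bp, so a part of its reads could come from them.

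dpr6 (FBgn0040823, 3L from 9974651 to 10139360, plus strand), a ligand of DIP-alpha, was higher in the germ line than in the soma. Its level was 9.26, 8.85 and 13.4 CPM in mid and 9.02, 16.5 and 8.39 CPM in late germ line hpo RNAi, and 25.8, 20.5 and 19.1 CPM in mid and 16.4, 17.2 and 12.6 CPM in late germ line yki RNAi. In the soma it reached 1.78, 2.06 and 1.3 CPM in early hpo RNAi and 0.832, 1.03 and 0.243 CPM in early yki RNAi, and at most 0.601 CPM later. Mid hpo RNAi soma held 3 counts of dpr6 in all and late hpo RNAi soma 1. With counts pooled over the libraries of each group, the somatic level was 417-fold (95% counting interval 142 to 2023) and 1161-fold (208 to 45888) lower there than in the germ line, and the log2 fold change under yki RNAi was -5.66 (SE 1.16) mid and -6.03 (SE 1.21) late, with adjusted p from 1.12e-05 to 2.95e-04. The sum of the germ line markers was also highest in the early hpo RNAi libraries among somatic groups, and its part in the early dpr6 level was not tested.

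Within the germ line dpr6 was lower under hpo RNAi than under yki RNAi at the mid stage without overlap, by a log2 of -1.04 (SE 0.32), which was not called (edgeR adjusted p = 0.624). dpr10 lies 8.09 kb from dpr6 and binds the same receptor, and its highest group mean was in the late soma. In mid yki RNAi, however, edgeR called dpr10 lower in the soma than in the germ line, as it did dpr6. That dpr10 call was lost without germ line mid replicate 2 (adjusted p = 0.0549) or soma mid replicate 1 (0.0559) or 2 (0.0611).

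DIP-epsilon (FBgn0259714, 2L from 6377771 to 6411326, minus strand) was level in the germ line and low in the early soma. Germ line libraries held 7.56 to 13.4 CPM, and the 4 group means lay between 10.0 ± 2.13 and 11.2 ± 0.755 CPM (SD, n = 3). In the soma under hpo RNAi the values were 0.328, 0 and 0.415 (early), 0.326, 3.0 and 0.908 (mid) and 4.89, 2.65 and 6.10 CPM (late). Under yki RNAi they were 2.29, 0 and 1.36 (early), 4.42, 1.97 and 9.73 (mid) and 12.4, 9.62 and 10.6 CPM (late). Late yki RNAi libraries lay above late hpo RNAi libraries, and edgeR called no consecutive stage or RNAi comparison, except the late soma with the spread taken from its 6 libraries alone (log2 -1.27, adjusted p = 0.0386). The averaged RNAi log2 fold change in the soma was -1.79 (SE 0.71, adjusted p = 0.170), and DESeq2 called it (adjusted p = 0.0449), as did edgeR without soma yki RNAi early replicate 2 (adjusted p = 0.0445). Soma was called lower than germ line in mid hpo RNAi (log2 -2.50, SE 0.99, adjusted p = 0.0488), and 5 of 6 fits without 1 library, all but that without soma mid replicate 2, did not call it (adjusted p from 0.0735 to 0.151).

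The Dprs that bind DIP-epsilon divided between the cell types. dpr14 and dpr18 had their highest group means in the germ line, while dpr19 had its highest in the soma. dpr18 (FBgn0030723, X from 16063738 to 16070304, plus strand) was at 5.61, 2.95 and 7.06 CPM in mid and 8.36, 9.10 and 12.8 CPM in late germ line hpo RNAi. In germ line yki RNAi it was at 7.47, 8.98 and 10.1 CPM in mid and 7.06, 4.05 and 4.85 CPM in late libraries. Somatic libraries of dpr18 held 0 to 2.22 CPM, below every germ line library, and the difference was called in mid yki RNAi (log2 -3.98, SE 1.23, adjusted p = 0.0120), and by DESeq2 in late hpo RNAi (adjusted p = 0.00360). Without soma yki RNAi early replicate 1 edgeR called dpr18 higher under hpo RNAi in the early soma (adjusted p = 0.0394) and on the somatic average (0.0275). dpr14 had means between 5.37 and 6.90 CPM in the germ line groups and at most 1.93 CPM in the somatic groups (n = 3 each), with no call. dpr19 had means of 6.38 against 1.32 CPM in mid hpo RNAi, soma against germ line (n = 3 each). In mid yki RNAi it was at 8.40 ± 3.51 against 1.20 ± 0.753 CPM (SD, n = 3). Both differences of dpr19 were called (log2 2.66 and 3.19, adjusted p = 0.0400 and 0.0161). The first was lost in 5 of 6 fits, all but that without soma mid replicate 3 (adjusted p from 0.0653 to 0.137). The second was lost without germ line mid replicate 2 (0.0627) or 3 (0.0717). In late hpo RNAi DESeq2 called dpr19 higher in the soma (log2 2.22, adjusted p = 0.0239), and edgeR did not.

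**Figure D5:**
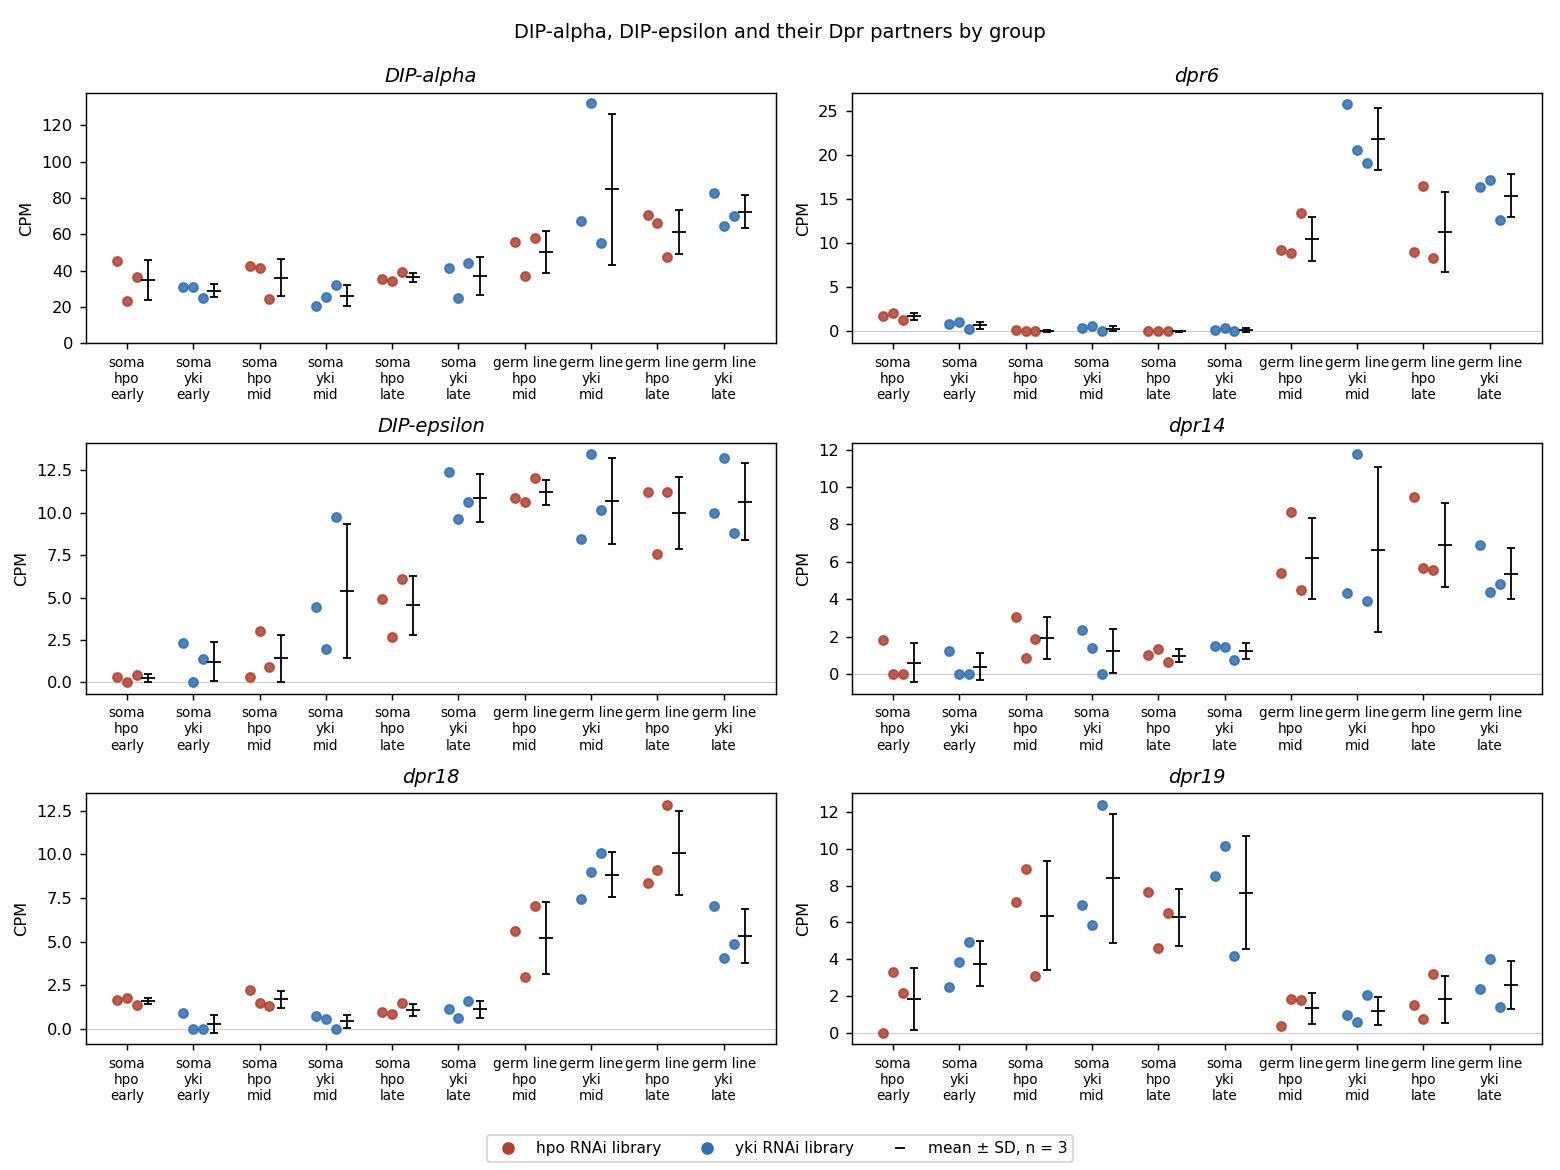
CPM in each library of the 10 groups for DIP-alpha, its partner dpr6, and DIP-epsilon with its partners dpr14, dpr18 and dpr19, with the mean ± SD of 3 beside the points. dpr6, dpr14 and dpr18 are highest in germ line groups, dpr19 in somatic groups, and DIP-alpha is above 20 CPM everywhere.

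Among the other members, side-IV, the receptor for Beat-IIa and Beat-IIb, was found in every somatic library, at 0.179 to 12.3 CPM, and had a count in 2 of 12 germ line libraries, at 0.266 and 0.164 CPM. The highest somatic group was early yki RNAi with 6.67 ± 4.94 CPM (SD, n = 3). Antisense RNAs overlap 895 bp and 2562 bp of its exons, and the strand counted is not given in the sources used here. dpr7 and side-II were found at low levels, nearly all in the germ line. dpr7 had no count in any somatic library and at most 1.98 ± 2.53 CPM in a germ line group (SD, n = 3). side was at 6.31 ± 1.67 CPM in germ line mid hpo RNAi and at 0.0121 ± 0.021 CPM in the somatic libraries of that stage and RNAi, which held 2 counts in all (SD, n = 3, adjusted p = 0.0150). With counts pooled over the libraries of each group it was 359-fold lower (95% counting interval 99.1 to 2971), and the call was lost without soma mid replicate 1 (adjusted p = 0.0519) or 2 (0.0599). dpr8, side-III, side-VI and side-VII reached group means of 1.19 to 3.95 CPM at most, and edgeR called no comparison of them. DESeq2 called dpr8 lower in the soma than in the germ line in late hpo RNAi (adjusted p = 0.0369) and late yki RNAi (adjusted p = 0.0107), as did edgeR in the latter without germ line late replicate 2 (adjusted p = 0.0366).

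Of 15 pairs of members reported to bind each other, 7 had both genes at 1 CPM or more in at least 1 group. In all 4 germ line groups this held for 4 pairs, namely DIP-alpha with dpr6 and DIP-epsilon with dpr14, dpr18 and dpr19. In the late soma, pairs that passed under both RNAi conditions included DIP-alpha with dpr10, beat-IIa and beat-IIb with side-IV, and DIP-epsilon with dpr19. Over all somatic groups, DIP-epsilon passed together with dpr19 in 5, with dpr14 in 3 and with dpr18 in 3. DIP-alpha passed together with dpr6 in 1 somatic group. dpr17, the most abundant Dpr, passed in 8 groups and DIP-gamma in 0. RNA from mixed sorted cells does not show whether the genes of a pair were in the same or in neighbouring cells. Of the 10 pairs of members that lie within 100 kb of each other, both were expressed in 2 (dpr6 with dpr10, and beat-IIa with beat-IIb), 1 in 2 pairs and neither in 6.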

How the data were processed

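The values the authors deposited are estimated counts (expected counts) per gene, not normalized, with 86.5% whole to within 1e-06. Their tools were STAR 2.7.6a and RSEM 1.3.3 among others, per the submitters' processing notes. The genome build is not given in the sources used here, so gene IDs were placed with the annotation BDGP6.54. Counts were rounded and fitted in R 4.3.3 with edgeR 4.0.16 (TMM, filterByExpr with a minimum count of 10, quasi-likelihood test, Benjamini-Hochberg over all genes tested, threshold 0.05): 18 somatic libraries (10672 genes), 12 germ line libraries (10717) and all 30 together (12089). CPM are counts per 1000000 of the library total, without TMM. Alternatives were DESeq2 1.42.0, RLE size factors, no filter, a replicate block, the compared libraries alone, and leaving out each library. The remaining libraries of a group are then assumed to vary like the others. Scripts were tested on data simulated with the spread of the somatic libraries, in which DESeq2 called more unchanged genes than edgeR. Series text calls the samples biological replicates, 3 per condition. Counting intervals and limits (95%, 3 counts) cover counting error only. The 95% intervals of log2 fold changes use a normal quantile of the SE and are somewhat narrow at these library numbers. Another 18 columns, controls of an earlier series, were not used, nor were 2 early germ line samples.

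Members, lists and comparisons were chosen with earlier results of these data known. Described gene by gene were members called between RNAi conditions and those reaching 10 CPM in a group, and others by group values. The interaction of RNAi with stage in the germ line was added after seeing the data.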

Additional observations from a re-analysis of the deposited data

Results flagged for a closer look

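In dpr18 the RNAi conditions differed in opposite directions at the germ line stages: every hpo RNAi library lay below every yki RNAi library at the mid stage (log2 fold change -0.76) and above at the late stage (0.94), a difference of -1.70 between the stages. Put the other way, late against mid was 0.92 with hpo RNAi and -0.79 with yki RNAi, a difference of 1.70. The interaction was tested after the pattern was seen and was not called (edgeR adjusted p = 1, with 0% of all genes called). At the mid stage the dpr18 estimate was also higher under hpo RNAi in the soma (1.94) and lower in the germ line, a difference of 2.7 (2.75 in the fit of all libraries, adjusted p = 0.633). None of these single RNAi differences of dpr18 was called, with edgeR adjusted p = 0.790 (mid soma), 0.747 (mid germ line) and 0.624 (late germ line). Late against mid under hpo RNAi, side was higher in every somatic library and lower in every germ line library, with log2 values of 5.17 and -3.30, a difference of 8.46 that was not tested and rests on 2 counts in the mid soma. Neither change of side was called (edgeR adjusted p = 0.154 and 0.767).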

How the results depend on the processing

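Counts of members called depended on the setting most where few were called. For hpo RNAi against yki RNAi, the early soma count of 1 became 0 with the replicate block, 3 in DESeq2 and 0 with the compared libraries alone. The mid soma count of 2 became 0 with the block, 3 in DESeq2 and 0 with the compared libraries alone. The late soma count of 1 became 2 in DESeq2 and 7 with the compared libraries alone, and the somatic average of 2 became 4 in DESeq2 and 3 with the block. In the germ line the late count of 0 became 1 in DESeq2, and the average of 0 became 1 with no filter and 1 in DESeq2. Between stages, soma hpo RNAi mid against early went from 0 to 2 with no filter and 2 in DESeq2, soma yki RNAi mid against early from 1 to 3 in DESeq2, germ line hpo RNAi late against mid from 0 to 1 in DESeq2, and germ line yki RNAi late against mid from 1 to 0 with the block. The late interaction of RNAi with cell type went from 0 to 1 in DESeq2. The cause was not tested. Leaving out 1 library at a time gave 0 to 3 members called between RNAi conditions in the early soma, 0 to 1 in the mid soma, 1 to 2 in the late soma and 2 to 3 on the somatic average. It gave 0 to 1 on the germ line average. From early to mid soma the counts ran from 0 to 1 under either hairpin, from mid to late soma from 2 to 5 (hpo RNAi) and 4 to 5 (yki RNAi), and from mid to late germ line under yki RNAi from 0 to 1. Between soma and germ line they ran from 7 to 9 and 7 to 8 under hpo RNAi (mid and late), and 9 to 10 and 7 to 8 under yki RNAi. The number of members expressed was 21 to 23. RLE size factors changed no call of the 20 single results followed, and in no setting did any of these reverse in sign. Same-numbered hpo RNAi and yki RNAi libraries of a stage and cell type correlated at -0.079 to 0.235 over 12 pairs, with 4 over 0.1. Same-numbered libraries of different stages or cell types were not compared, so whether the numbers pair the samples was not settled. Under the replicate block 5 of the 20 single results were no longer called. Members near 0 in a group, such as side-II and dpr1, had too few counts for a firm fold change.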
